A study of Xenopus laevis with 16 samples.

Results

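Motile cilium and multiciliated cell genes were followed through embryonic ectoderm of Xenopus laevis. The set holds 104 of the 43646 transcripts of the deposited tables. It takes in every transcript named myb or gmnc-like and every transcript with the human symbol FOXJ1, MCIDAS, CCNO or TUBA1A. It also takes in those whose human symbol is a numbered DNAH, DNAI, DNAL, DNAAF, IFT, TEKT, RSPH or SPAG. The rule reads names and symbols only, but it was chosen with earlier results of these data known.

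The samples were 16 RNA-seq libraries, all collected at stage 12, of which 14 were animal caps cut at stage 9. An animal cap is the naive ectoderm at the top of the blastula, which becomes epidermis when left alone. Caps came from embryos injected in early cleavage with mRNA for BMP4 (200 pg), Chordin (400 pg), Wnt8 (16 pg), Cerberus (400 pg), FGF8 (200 pg), Xnr2 (200 pg), or Wnt8 (16 pg) with Xnr2 (200 pg), with 1 library each. Dissociated caps gave 3 libraries and control caps 4. A dorsal and a ventral piece of whole embryos, divided at stage 10, gave 1 library each and hold mesoderm and endoderm as well as ectoderm. The animals were of the Nasco strain, and the labels give no genotype and no pooling. Control 1 served dissociated 1, BMP4 and Chordin, control 2 served dissociated 2, and control 3 served dissociated 3, Wnt8 and Cerberus. Control 4 served FGF8, Xnr2 and Wnt8 plus Xnr2. These 4 families are called control sets. The file header calls the libraries of a set an independent experiment, and nothing states separate clutches, so p-values measure only the spread between these samples.

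Multiciliated cells are the skin cells of the tadpole that bear many beating cilia. In Xenopus epidermis they arise among the inner ectoderm cells, and Notch signalling limits how many form. Gmnc acts upstream of Mcidas (multicilin), which with E2f factors switches on ccno and myb for centriole multiplication. Foxj1 drives the genes of the motile axoneme, and it also does so in cells with a single motile cilium, such as those of the gastrocoel roof plate.

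Values are RPKM, reads scaled to transcript length and to mapped reads. The libraries held 25408438 to 46522450 mapped reads, recovered from the RPKM steps. Fold changes are differences of log2(RPKM + 1), which understates the change of low transcripts. Control 1 stood apart from controls 2 and 3 in its summed neural plate and epidermis markers, and regulators read low in it. Of 60 tested members, 35 were lowest in control 1 among controls 1 to 3 and 21 were highest in it. Over all 15819 transcripts tested, 5075 were lowest in control 1 and 7532 highest. Its summed neural plate markers were 933 RPKM, against 193 in control 2 and 229 in control 3. Its summed epidermis markers were 1697 RPKM, against 3179 and 2691. Its summed endoderm markers were also lower, at 3.03 RPKM, against 16.77 in control 2 and 17.05 in control 3 (10 transcripts). Its summed ionocyte markers, 336 RPKM, lay between 306 in control 2 and 774 in control 3. Its summed goblet cell markers were 878 RPKM, against 1010 and 934. Control set 4 lists 984 transcripts without a read in controls 1 to 3 or dissociated 1 to 3. Whether reads of a member stand under another name in that set was not tested. The alpha-tubulin tuba1b.S had 1.04 RPKM in control 4, against 43.9 to 65.7 RPKM in controls 1 to 3.

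Of the 104 members, 14 had no read in dissociated 1 to 3 or controls 1 to 3, the 6 libraries for which a full table exists. Another 30 averaged under 1 RPKM there, and the other 60 were tested for dissociation. Transcripts without reads were 8 DNAH, 2 DNAAF and 1 each of CCNO, DNAI, DNAL and IFT models. Of these, 4 were listed in control set 4, namely dnaaf2.L, dnaaf3.L, dnai2.S and dnal1.L. None of the 12 CCNO models other than ccno.L and ccno.S exceeded 0.969 RPKM in any library. Of the 14 dynein heavy chains (DNAH), the motor subunits of the axonemal arms, only the DNAH9 model Xetrov90025669m.S passed the filter. It had between 0.821 and 3.30 RPKM in the 16 libraries. The next by mean level were the DNAH5 model LOC100488102.L, which reached 0.634 RPKM in control 3, and the DNAH2 model Xelaev18019324m, which reached 0.187 RPKM in control 2. Counts over tested members describe those that passed the filter and not the full set. The L and S homeologs and duplicated models share much sequence, and how the authors divided reads among them is not given in the sources used here, so differences between copies are uncertain.

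The regulators and the alpha-tubulins varied most among controls. The range over controls 1 to 3 had a median of 5.10 on the log2 scale for the 10 regulator transcripts tested, namely myb, gmnc-like.L, foxj1, MCIDAS and ccno. It was 5.46 for the 8 alpha-tubulins, 2.22 for 4 radial spoke, 1.73 for 4 tektin, 1.10 for 12 SPAG and 0.42 for 7 dynein arm and assembly transcripts. It was 0.73 for the 15 intraflagellar transport transcripts and 0.78 for all 15819 transcripts tested. Control 1 was the lowest of these controls for 10 of 10 regulators, and control 2 was the highest for 9 of 10. Over all 15819 transcripts, control 1 was the lowest for 5075 and control 2 the highest for 4132. A range of at least 2 was seen in 20 of 60 members, against 6.28% of all transcripts tested.

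**Figure D1:**
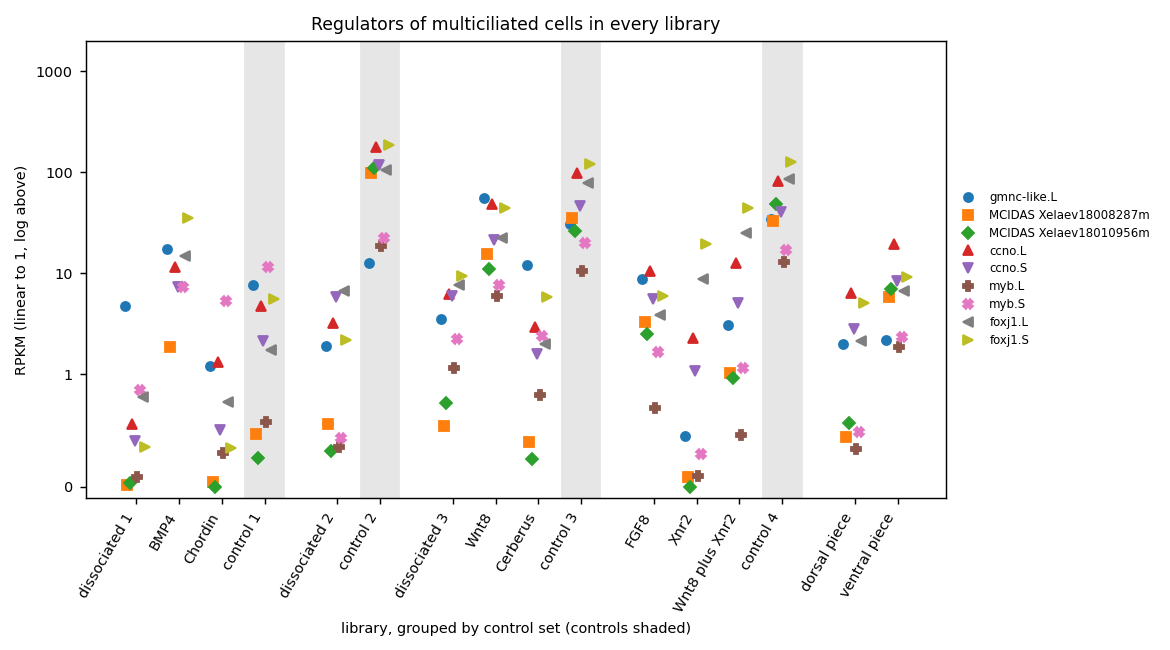
RPKM of the regulators (points, 1 symbol per transcript) in every library, with libraries grouped by control set and the control of each set shaded. Most regulators sit far lower in control 1 than in controls 2 to 4. Both MCIDAS models lie under 1 RPKM in control 1, all 3 dissociated libraries, Chordin, Cerberus, Xnr2 and the dorsal piece.

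Gmnc-like.L, the homeolog of the upstream factor that carries most reads, had 4.74, 1.93 and 3.55 RPKM in dissociated 1 to 3, against 7.61, 12.7 and 31.0 RPKM in controls 1 to 3. The groups did not overlap, but the difference of -1.88 ± 0.51 (SE) on the log2 scale did not pass the test (limma, adjusted p = 0.233). The S homeolog ran the other way, with 1.75, 1.76 and 1.91 RPKM in dissociated 1 to 3, against 0.309, 0.0154 and 0.102 RPKM in controls 1 to 3. It averaged 0.974 RPKM, under the filter, and is listed in no other library.

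MCIDAS, the coactivator that commits cells to the multiciliated fate, is read by 3 models. Xelaev18008287m had 0.0156, 0.555 and 0.545 RPKM in dissociated 1 to 3, against 0.468, 98.4 and 35.2 RPKM in controls 1 to 3. Xelaev18010956m had 0.0379, 0.316 and 0.749 RPKM in dissociated 1 to 3, against 0.256, 111 and 26.0 RPKM in controls 1 to 3. Dissociated 2 and 3 thus lay above control 1 while far below controls 2 and 3. The third model, Xelaev18002015m, had at most 0.294 RPKM in dissociated caps and 0.0503, 39.2 and 10.6 RPKM in controls 1 to 3. No MCIDAS model passed the test, with adjusted p from 0.412 to 0.495 (limma).

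Ccno.L, a cyclin-like protein needed to make many centrioles, had 0.559, 3.25 and 6.30 RPKM in dissociated 1 to 3, against 4.74, 178 and 97.9 RPKM in controls 1 to 3. Ccno.S had 0.409, 5.84 and 5.98 RPKM in dissociated 1 to 3, against 2.16, 119 and 46.1 RPKM in controls 1 to 3. Each copy was lower in the dissociated library of every set, yet control 1 overlapped the dissociated range.

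Myb.S, a transcription factor of centriole amplification, had 0.861, 0.431 and 2.27 RPKM in dissociated 1 to 3, against 11.5, 22.5 and 20.1 RPKM in controls 1 to 3. It averaged 1.19 ± 0.96 RPKM in dissociated caps and 18.0 ± 5.8 RPKM in control caps (SD, n = 3 each), and the groups did not overlap. Its fall of 3.16 ± 0.40 (SE) on the log2 scale passed the test (limma, adjusted p = 0.0362), and so did a fit with the set number as a block (adjusted p = 0.0214). Across 14 alternative settings its adjusted p ran from 3.02e-06 to 0.222, and it passed in 5 of them. Leaving out control 2, control 3, dissociated 1 or dissociated 2 ended the call. Myb.L had 0.0871, 0.354 and 1.17 RPKM in dissociated 1 to 3, against 0.580, 18.6 and 10.5 RPKM in controls 1 to 3, and did not pass (adjusted p = 0.431).

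Foxj1.S, the master factor of motile cilia, had 0.357, 2.21 and 9.42 RPKM in dissociated 1 to 3, against 5.60, 188 and 119 RPKM in controls 1 to 3. Foxj1.L had 0.803, 6.65 and 7.73 RPKM in dissociated 1 to 3, against 1.76, 106 and 79.2 RPKM in controls 1 to 3. Both copies were lower in the dissociated library of each set, with the smallest gap in set 1. For foxj1.S the log2 ratio of dissociated over control was -2.28 in set 1, -5.88 in set 2 and -3.53 in set 3, and the test over 6 libraries gave an adjusted p of 0.346 (limma).

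Myb.S was the only 1 of the 60 tested members called lower by dissociation, and 0 were called higher, where 0.171% of all transcripts were called lower and 0.145% higher. At an unadjusted p under 0.05, 18 of 60 members were lower and 0 higher, against 5.56% and 4.03% of all transcripts. In the fit with the set as a block, the DNAAF1 model joined myb.S (2 of 60, against 0.853% of all transcripts called lower). Without control 1, 15 of 60 were called lower, 9 of them regulators, against 1.84% of all transcripts. With the block and set 1 left out, an alternative chosen after seeing the data, 25 of 60 were called lower (5.65% of all transcripts), among them 10 of 10 regulators, 6 of 8 alpha-tubulins, 3 of 4 radial spoke and 3 of 4 tektin transcripts. No intraflagellar transport transcript of 15 was called in either fit. The 3 MCIDAS models, the RSPH1 model and the TEKT2 model had under 1 RPKM in dissociated 1 to 3 and in control 1. They passed the filter only through controls 2 and 3. So did myb.L, which was above 1 RPKM only in dissociated 3 among these low libraries. The part of all these transcripts in such counts is no independent support for a fall. In all 3 sets the dissociated library was the lower for 41 of 60 members, against 24.9% of all transcripts tested. All 3 dissociated libraries lay below all 3 controls for 16 members, against 8.16%.

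**Figure D2:**
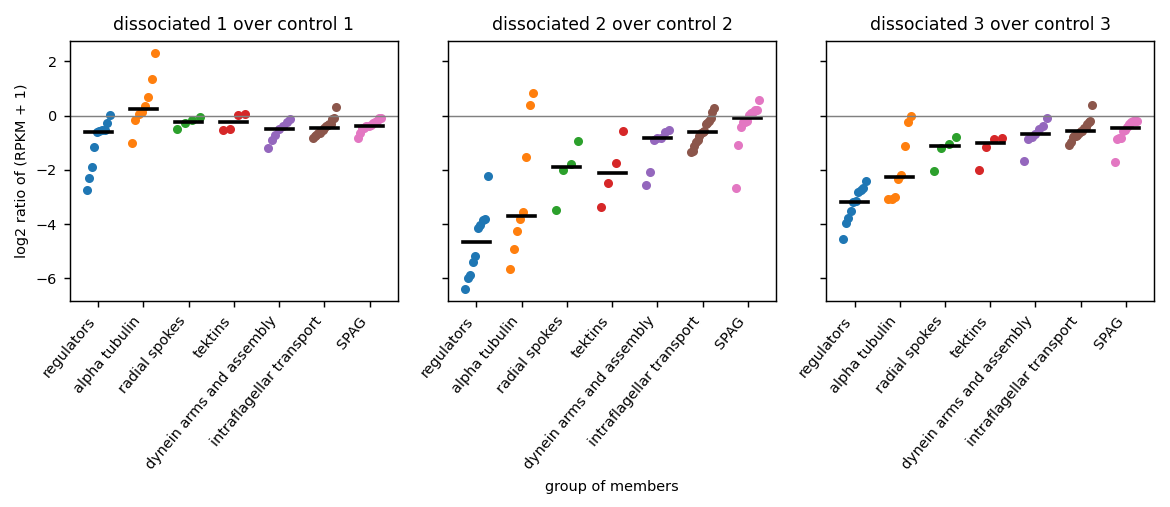
Log2 ratio of RPKM + 1 in each dissociated library over the control of its set, 1 point per tested member and a bar at each group's median. The regulator median is -0.60 in set 1, -4.66 in set 2 and -3.18 in set 3, while the intraflagellar transport median stays between -0.62 and -0.48.

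Other cell type markers also differed between dissociated and control caps, in both directions. The summed ionocyte markers were 25.8 to 45.2 RPKM in dissociated caps and 306 to 774 RPKM in control caps (23 transcripts, 8 to 15 of them at 1 RPKM or more in a control). The summed neural plate markers were 1160 to 2323 RPKM in dissociated caps and 193 to 933 RPKM in control caps (19 transcripts). The summed epidermis markers were 511 to 1397 RPKM in dissociated caps and 1697 to 3179 RPKM in control caps (18 transcripts). Goblet cell markers summed to 98 to 607 RPKM in dissociated caps and 878 to 1010 RPKM in control caps (19 transcripts). The part of these shifts in the members' values was not tested. In such bulk libraries fewer cells of a type and less RNA per cell cannot be told apart.

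The axoneme members differed less between the groups than the regulators. The median log2 difference was -2.97 for the 10 regulators, -1.04 for 4 radial spoke, -1.12 for 4 tektin and -0.65 for 7 dynein arm and assembly transcripts. The DNAAF1 model LOC101730543.S, a factor that assembles dynein arms in the cytoplasm, had 2.57, 1.53 and 1.89 RPKM in dissociated 1 to 3, against 7.15, 9.77 and 8.12 RPKM in controls 1 to 3. The groups did not overlap, and control 1 was here close to the other controls. Its difference of -1.65 ± 0.27 (SE) on the log2 scale gave an adjusted p of 0.0734 and, under the block, of 0.0489 (limma). The DNAAF5 copies heatr2-like.L and heatr2-like.S, of the same assembly step, averaged 1.82 ± 0.20 and 1.71 ± 0.81 RPKM in dissociated caps and 3.43 ± 0.65 and 3.91 ± 1.38 RPKM in control caps (SD, n = 3 each). For neither copy did the groups overlap, and neither passed (limma, adjusted p = 0.453 and 0.503). Wdr78.L, matched in the files to the dynein intermediate chain DNAI1, had 0.985, 1.06 and 2.84 RPKM in dissociated 1 to 3, against 1.34, 11.0 and 5.65 RPKM in controls 1 to 3. The DNAL4 light chain models were steadier, Xelaev18023653m with 31.1, 18.5 and 22.9 RPKM in dissociated 1 to 3, against 34.1, 35.7 and 32.4 RPKM in controls 1 to 3. The other DNAL4 model, Xelaev18025658m, had 7.07, 5.60 and 5.95 RPKM in dissociated 1 to 3, against 9.65, 8.96 and 6.33 RPKM in controls 1 to 3.

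Radial spokes relay signals from the central pair to the dyneins. The RSPH1 model LOC100489385.L had 0.213, 0.925 and 0.300 RPKM in dissociated 1 to 3, against 0.479, 20.6 and 4.42 RPKM in controls 1 to 3. Rsph6a.L, matched to the spoke head protein RSPH4A, had 4.39, 4.83 and 5.59 RPKM in dissociated 1 to 3, against 4.57, 19.2 and 12.8 RPKM in controls 1 to 3. Rsph3.L, of the spoke stalk, had 5.04, 1.97 and 2.96 RPKM in dissociated 1 to 3, against 7.57, 4.63 and 5.92 RPKM in controls 1 to 3. For RSPH1 and rsph6a.L control 1 lay within the dissociated range while controls 2 and 3 lay above it, and no radial spoke transcript passed the test.

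Among tektins, filament proteins of the axonemal doublets, tekt4.S averaged 1.19 ± 0.36 RPKM in dissociated caps and 5.76 ± 5.24 RPKM in control caps (SD, n = 3 each), with 2.50, 11.8 and 2.98 RPKM in controls 1 to 3. The TEKT2 model Xelaev18015140m had at most 0.253 RPKM in dissociated caps and 0, 12.1 and 3.77 RPKM in controls 1 to 3. Tekt3.L had 1.83, 1.23 and 1.72 RPKM in dissociated 1 to 3, against 3.09, 2.29 and 3.85 RPKM in controls 1 to 3. Tekt4.S and tekt3.L did not overlap between the groups, and none of the 4 tested tektins passed.

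Intraflagellar transport particles carry cargo along any cilium, motile or not. The IFT20 model Xelaev18011911m had 13.6, 11.9 and 14.8 RPKM in dissociated 1 to 3, against 10.6, 20.5 and 17.5 RPKM in controls 1 to 3. Ift57.S had 11.1, 12.7 and 8.11 RPKM in dissociated 1 to 3, against 18.1, 11.6 and 12.5 RPKM in controls 1 to 3. Ift46-like.1 had 9.41, 5.57 and 6.71 RPKM in dissociated 1 to 3, against 15.3, 8.79 and 12.1 RPKM in controls 1 to 3. All 3 transcripts overlapped between the groups. The median change of the 15 tested was -0.47 on the log2 scale, against -0.08 for all transcripts tested.

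SPAG genes share only a name, sperm-associated antigen, and their roles differ. The SPAG7 models read highest, LOC100485200.L with 156, 89.0 and 86.5 RPKM in dissociated 1 to 3, against 202, 76.5 and 116 RPKM in controls 1 to 3. Xelaev18002775m had 55.3, 31.2 and 30.3 RPKM in dissociated 1 to 3, against 87.1, 31.1 and 55.2 RPKM in controls 1 to 3. Xelaev18001017m had 30.2, 12.3 and 19.7 RPKM in dissociated 1 to 3, against 32.0, 14.8 and 24.7 RPKM in controls 1 to 3. For all 3 of these models control 1 was the highest control, opposite to the regulators. The SPAG8 model LOC101733017.1, of a family found in the axoneme, had 3.18, 3.79 and 3.85 RPKM in dissociated caps and 4.44, 29.3 and 15.0 RPKM in control caps, without overlap, and is named here after its values were seen (adjusted p = 0.403, limma, and 0.0241 without control 1).

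The TUBA1A symbol covers 9 alpha-tubulin models, and 6 of the 8 tested were lowest in control 1 among controls 1 to 3 and highest in control 2. LOC100497528.S had 180, 382 and 236 RPKM in dissociated 1 to 3, against 35.3, 1099.7 and 517 RPKM in controls 1 to 3. Xelaev18044483m had 4.60, 48.2 and 17.8 RPKM in dissociated 1 to 3, against 1.22, 695 and 158 RPKM in controls 1 to 3. In set 1 the dissociated library was thus the higher for both, and in sets 2 and 3 the lower. LOC100497528.L, Xelaev18047022m, LOC100490289-like.L and Xelaev18047021m had at most 8.46 RPKM in dissociated caps and between 91.2 and 400 RPKM in control 2. Tuba1b.S varied less, with 57.7 to 83.4 RPKM in dissociated caps and 43.9 to 65.7 RPKM in control caps, and tuba1b.L reached 36.7 RPKM in dissociated caps and 30.2 RPKM in control caps. Xetrov90024521m.L never exceeded 0.354 RPKM.

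Related genes outside the members were counted from 4 lists. Of 62 axoneme and cilium transcripts tested, 0 passed for dissociation and 16 were lower at an unadjusted p under 0.05 (limma), against 5.56% of all transcripts. Under the block 3 were called lower (0.853% of all transcripts), namely a TUBB4B model (55.0 ± 35.2 RPKM in dissociated caps and 192 ± 46 RPKM in control caps, SD, n = 3 each), mns1.L, whose product lies inside the doublet microtubules, and wdr16.L. Of 25 transcripts of the wider multiciliated cell program, such as rfx2 and the centriole genes, 0 passed. At an unadjusted p under 0.05 there were 1 higher and 5 lower (4.03% and 5.56% of all transcripts). Of 36 Notch lateral inhibition transcripts 0 passed, with 7 higher and 6 lower at an unadjusted p under 0.05 (4.03% and 5.56% of all transcripts), and with the block 4 HES1 and HES5 models, Notch targets, were called higher (0.657%). Among these, the HES1 model Xelaev18000896m had at most 0.639 RPKM in controls 1 to 3 and passed the filter only through dissociated caps. Of 19 other tubulins 0 passed, with 1 higher and 2 lower at an unadjusted p under 0.05 (4.03% and 5.56% of all transcripts). With the block only the same TUBB4B model did (0.853% of all transcripts called lower).

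Every injection was compared with all 4 controls by a test and with its own control as a ratio, without a test. Ratios to the own control carry 95% exact binomial intervals from recovered reads, which cover counting error only. A change of at least 4-fold on the log2(RPKM + 1) scale, with 5 RPKM or more in the higher library, was counted. Against own controls, 13 of 61 members were that much lower in Cerberus (0.96% of all transcripts), 12 of 54 in FGF8 (0.384%), 14 of 56 in Xnr2 (1.44%) and 11 of 60 in Wnt8 plus Xnr2 (1.69%). Regulators made up 9, 9, 10 and 8 of these, and the others were alpha-tubulins. Wnt8 had 1 such member of 61 (0.36%) and Chordin 1 of 55 (0.282%), while BMP4 had 2 of 56 that much higher (0.735%). Some of the lower members had under 1 RPKM in the injected library and passed the filter only through their control. They were gmnc-like.L, both myb copies and every MCIDAS model in Xnr2, and every MCIDAS model and myb.L in Cerberus. In FGF8 and in Wnt8 plus Xnr2 they were myb.L with MCIDAS Xelaev18002015m, and in the latter also Xelaev18010956m. In Chordin it was foxj1.S. Their part in these counts is no independent support for a fall.

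BMP4 and Chordin, a ligand and its extracellular antagonist, shared the low control 1. Foxj1.S had 35.6 RPKM in BMP4 caps, against 5.60 RPKM in control 1 and 119 to 188 RPKM in controls 2 to 4. The ratio to the own control was 6.35 (95% counting interval 5.73 to 7.06) for foxj1.S and 8.53 (7.14 to 10.3) for foxj1.L. Gmnc-like.L, ccno.L and ccno.S were also above control 1, with ratios of 2.29 (2.03 to 2.58), 2.45 (2.10 to 2.86) and 3.41 (2.85 to 4.10). Myb.S was below it, with 7.31 RPKM in BMP4 caps and 11.5 RPKM in control 1. BMP4 caps thus lay above control 1 and below controls 2 to 4 for ccno, foxj1 and MCIDAS Xelaev18008287m. In Chordin caps foxj1.S had 0.342 RPKM, a ratio of 0.0610 (0.0390 to 0.0913) to control 1, and gmnc-like.L had 1.22 RPKM, a ratio of 0.160 (0.120 to 0.210). All 6 tested regulators were below every control in Chordin caps, as were 18.3% of all transcripts. Against the 4 controls, 0 of 56 members passed for BMP4 (0.424% of all transcripts called in either direction) and 0 of 55 for Chordin (0.0128%). At an unadjusted p under 0.05, 1 member was lower in BMP4 (0.661% of all transcripts) and 7 in Chordin (1.87%), and 0 were higher in either. The summed mesoderm markers were 683 RPKM in BMP4 caps, against 5.20 RPKM in control 1 (14 transcripts), and the summed ionocyte markers were 101 RPKM in BMP4 caps, against 332 RPKM in control 1 (7 transcripts). In Chordin caps the summed neural plate markers were 1910 RPKM, against 933 RPKM in control 1 (16 transcripts), and the summed ionocyte markers 50.1 RPKM, against 334 RPKM in control 1 (9 transcripts). The summed epidermis markers were 829 RPKM in Chordin caps, against 1697 RPKM in control 1 (16 transcripts). The part of these markers in the members' values was not tested. Without control 1, LOC100497528.S and MCIDAS Xelaev18008287m were called lower in BMP4 (0.112% of all transcripts), and ccno.L, foxj1.L and foxj1.S in Chordin (0.295%). Control 1 is the own control of both libraries, so these fits set them against controls of other sets only. MCIDAS Xelaev18008287m had 1.89 RPKM in BMP4 caps and 0.468 RPKM in control 1, a ratio of 4.03 (2.72 to 6.14). It passed the filter only through BMP4 caps, so this ratio is no independent support for a rise. Foxj1.L and foxj1.S passed it in Chordin only through control 1, so their calls are no independent support for a fall.

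Wnt8 and Cerberus shared control 3. Cerberus is a secreted antagonist of BMP, Nodal and Wnt ligands. MCIDAS Xelaev18008287m had 0.397 RPKM in Cerberus caps, 15.6 RPKM in Wnt8 caps and 35.2 RPKM in control 3. Foxj1.S had 5.86 RPKM in Cerberus caps, 44.7 RPKM in Wnt8 caps and 119 RPKM in control 3. Ccno.L had 2.95 RPKM in Cerberus caps, 48.2 RPKM in Wnt8 caps and 97.9 RPKM in control 3. Each regulator but gmnc-like.L was lower in both treated libraries than in control 3, and much lower in Cerberus. Gmnc-like.L had 12.1 RPKM in Cerberus caps, 56.0 RPKM in Wnt8 caps and 31.0 RPKM in control 3, and the Wnt8 value was the highest of all libraries. Its ratio in Wnt8 caps to control 3 was 1.81 (95% counting interval 1.72 to 1.90). Axoneme members differed among themselves. DNAAF1 had 5.58 RPKM in Cerberus caps, 6.20 RPKM in Wnt8 caps and 8.12 RPKM in control 3, and the median log2 ratio to control 3 of the 7 dynein arm and assembly transcripts was -0.02 in Cerberus caps and -0.04 in Wnt8 caps. The RSPH1 model had 1.24 RPKM in Cerberus caps, 1.11 RPKM in Wnt8 caps and 4.42 RPKM in control 3, and the radial spoke median was -0.82 in Cerberus caps and -0.75 in Wnt8 caps. The TEKT2 model Xelaev18015140m had 0.305 RPKM in Cerberus caps, 0.174 RPKM in Wnt8 caps and 3.77 RPKM in control 3. The 2 libraries were thus close to control 3 for the dynein group and below it for RSPH1 and TEKT2. Against the 4 controls, 0 of 61 members passed for either (0.0753% of all transcripts for Cerberus and 0.0758% for Wnt8, in either direction), and at an unadjusted p under 0.05, 2 were lower in Cerberus (1.67% of all transcripts) and 0 in Wnt8 (0.872%). Without control 1, 6 members were called lower in Cerberus (0.376% of all transcripts), namely the 3 MCIDAS models, ccno.L, foxj1.L and myb.L. The MCIDAS models and myb.L passed the filter only through control 3, so their calls are no independent support for a fall. The summed neural plate markers were 1551 RPKM in Cerberus caps, against 228 RPKM in control 3 (16 transcripts). In Wnt8 caps they were 384 RPKM, against 229 RPKM in control 3 (17 transcripts). Ionocyte markers summed to 124 RPKM in Cerberus caps and 312 RPKM in Wnt8 caps, against 769 RPKM in control 3 (12 transcripts). In the same order, epidermis markers summed to 936 and 1685 RPKM, against 2691 RPKM (16 transcripts). The part of these markers in the members' values was not tested.

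FGF8, Xnr2 and Wnt8 plus Xnr2 shared control 4, and in its Xnr2 libraries most regulators lay below control 4 and most axoneme members named here above it. Xnr2 is a Nodal ligand, and such ligands can turn cap cells into mesoderm and endoderm. MCIDAS Xelaev18008287m had 3.27 RPKM in FGF8 caps, 0.0866 RPKM in Xnr2 caps, 1.03 RPKM in Wnt8 plus Xnr2 caps and 33.2 RPKM in control 4. MCIDAS Xelaev18010956m had 2.49 RPKM in FGF8 caps, was listed at 0 in Xnr2 caps, and had 0.966 RPKM in Wnt8 plus Xnr2 caps and 48.2 RPKM in control 4. Myb.S had 1.68 RPKM in FGF8 caps, 0.297 RPKM in Xnr2 caps, 1.17 RPKM in Wnt8 plus Xnr2 caps and 17.0 RPKM in control 4. Regulators were thus low in all 3 injected libraries. The summed ionocyte markers were 83.6 RPKM in FGF8 caps, against 451 RPKM in control 4 (11 transcripts). The summed neural plate markers were 424 RPKM in FGF8 caps, against 135 RPKM in control 4 (13 transcripts). The summed mesoderm markers were 101 RPKM in FGF8 caps, against 3.43 RPKM in control 4 (6 transcripts). Their part in the regulators' values was not tested.

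Foxj1 stayed at a larger share of its control level than MCIDAS in the Xnr2 libraries. Foxj1.S had 6.02 RPKM in FGF8 caps, 19.6 RPKM in Xnr2 caps, 44.7 RPKM in Wnt8 plus Xnr2 caps and 125 RPKM in control 4. Its ratio to control 4 was 0.157 (95% counting interval 0.148 to 0.166) in Xnr2 caps and 0.358 (0.345 to 0.371) in Wnt8 plus Xnr2 caps. For MCIDAS Xelaev18008287m the ratio was 0.00261 (0.000956 to 0.00568) in Xnr2 caps and 0.0310 (0.0245 to 0.0387) in Wnt8 plus Xnr2 caps. The counting intervals of the 2 genes did not overlap.

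In the same libraries the radial spoke members were above control 4. The RSPH1 model had 1.16 RPKM in FGF8 caps, 14.8 RPKM in Xnr2 caps, 27.1 RPKM in Wnt8 plus Xnr2 caps and 2.57 RPKM in control 4. Its ratio to control 4 was 5.76 (4.61 to 7.25) in Xnr2 caps and 10.5 (8.53 to 13.1) in Wnt8 plus Xnr2 caps. On the log2(RPKM + 1) scale, with 5 RPKM or more in the higher library, it was the 1 member at least 4-fold higher in either (2.97% and 2.88% of all transcripts). As plain RPKM ratios, spag6.L was over 4-fold higher in both, and DNAAF1, wdr78.L, rsph9.L, tekt1.L, tekt4.S and the TEKT2 model in Wnt8 plus Xnr2 caps, with ratios of 4.19 to 6.47, of which spag6.L, rsph9.L and tekt1.L are named here after their values were seen. Spag6.L and the TEKT2 model had under 1 RPKM in control 4 and passed the filter only through the injected libraries. Their ratios are thus no independent support for a rise. The share of all transcripts over 4-fold by plain ratio was not counted. Across all controls the RSPH1 model overlapped, since control 2 had 20.6 RPKM, above Xnr2 caps and below Wnt8 plus Xnr2 caps. Rsph3.L had 4.51 RPKM in FGF8 caps, 11.7 RPKM in Xnr2 caps, 21.5 RPKM in Wnt8 plus Xnr2 caps and 4.63 to 7.57 RPKM in the 4 controls, so both Xnr2 libraries lay above every control. Its change in Wnt8 plus Xnr2 caps was 1.67 ± 0.45 (SE) on the log2 scale, with an adjusted p of 0.109 (limma).

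**Figure D3:**
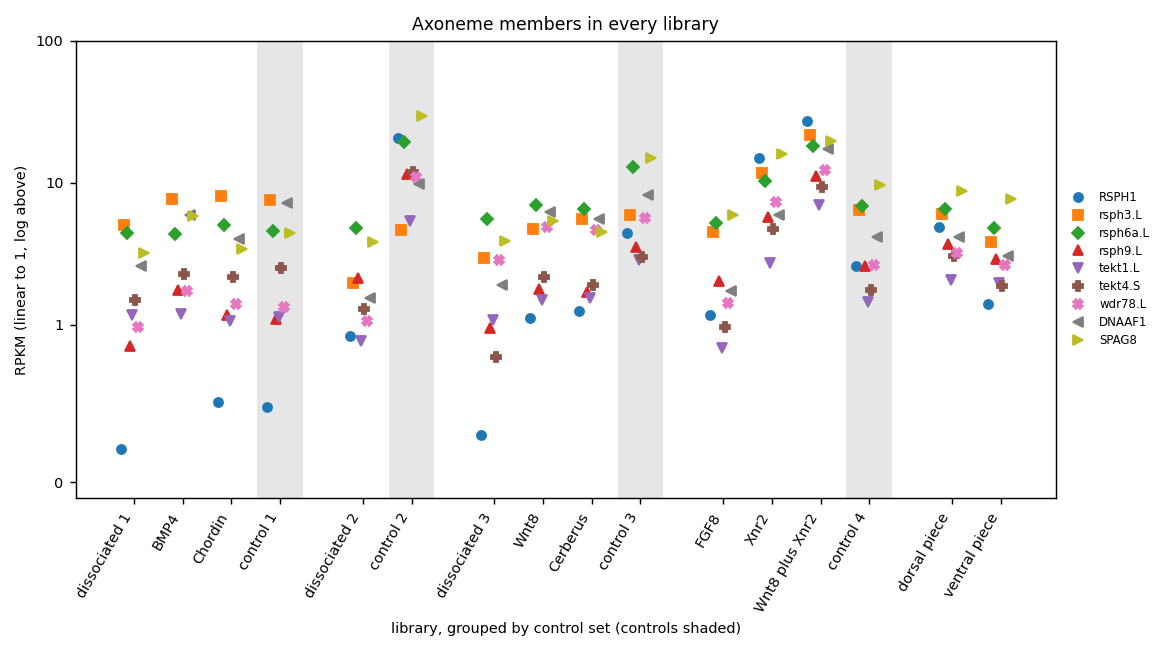
RPKM of 9 axoneme members in every library, grouped as in the plot of the regulators. In control set 4 the Wnt8 plus Xnr2 library lies above control 4 for each of them, and most are also high in control 2.

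Other axoneme members were divided in Xnr2 caps. Among tested dynein arm and assembly transcripts, DNAAF1, wdr78.L and the DNAH9 model were above control 4 there. Both DNAL4 models were below it, with ratios of 0.916 and 0.862, as were heatr2-like.L (0.729) and heatr2-like.S (0.620). In Wnt8 plus Xnr2 caps all of these were above control 4. DNAAF1 had 1.73 RPKM in FGF8 caps, 5.88 RPKM in Xnr2 caps, 17.3 RPKM in Wnt8 plus Xnr2 caps and 4.11 to 9.77 RPKM in the 4 controls. Wdr78.L had 1.42 RPKM in FGF8 caps, 7.32 RPKM in Xnr2 caps, 12.3 RPKM in Wnt8 plus Xnr2 caps and 2.65 RPKM in control 4. Tekt4.S had 0.984 RPKM in FGF8 caps, 4.73 RPKM in Xnr2 caps, 9.34 RPKM in Wnt8 plus Xnr2 caps and 1.76 RPKM in control 4. The highest value again stood in Wnt8 plus Xnr2 caps within the set. Of the 4 members with values in this set alone, named here after their values were seen, the dynein chain dnai2.S had 2.68, 9.55 and 13.3 RPKM in FGF8, Xnr2 and Wnt8 plus Xnr2 caps and 3.39 RPKM in control 4. The assembly factor dnaaf2.L was highest in the control, with 16.0, 14.0 and 18.3 RPKM in FGF8, Xnr2 and Wnt8 plus Xnr2 caps and 23.7 RPKM in control 4. Dnaaf3.L, also of assembly, had 1.76, 3.26 and 6.15 RPKM in FGF8, Xnr2 and Wnt8 plus Xnr2 caps and 2.28 RPKM in control 4. The light chain dnal1.L had 1.46 and 3.80 RPKM in Xnr2 and Wnt8 plus Xnr2 caps and 1.07 RPKM in control 4, with no value listed for FGF8. The alpha-tubulins were divided. LOC100497528.L, LOC100497528.S, Xelaev18044483m, Xelaev18047022m and LOC100490289-like.L were below control 4 in all 3 libraries, with Xelaev18044483m at 16.2 RPKM in FGF8 caps, 4.16 RPKM in Xnr2 caps, 5.95 RPKM in Wnt8 plus Xnr2 caps and 93.8 RPKM in control 4. LOC100497528.S was nearer to it, with 128 RPKM in FGF8 caps, 157 RPKM in Xnr2 caps, 300.5 RPKM in Wnt8 plus Xnr2 caps and 342 RPKM in control 4. Tuba1b.L was above control 4 in all 3 libraries and tuba1b.S in both Xnr2 libraries, with no value listed for FGF8, and Xelaev18047021m was above it in FGF8 and in Wnt8 plus Xnr2 caps.

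**Figure D4:**
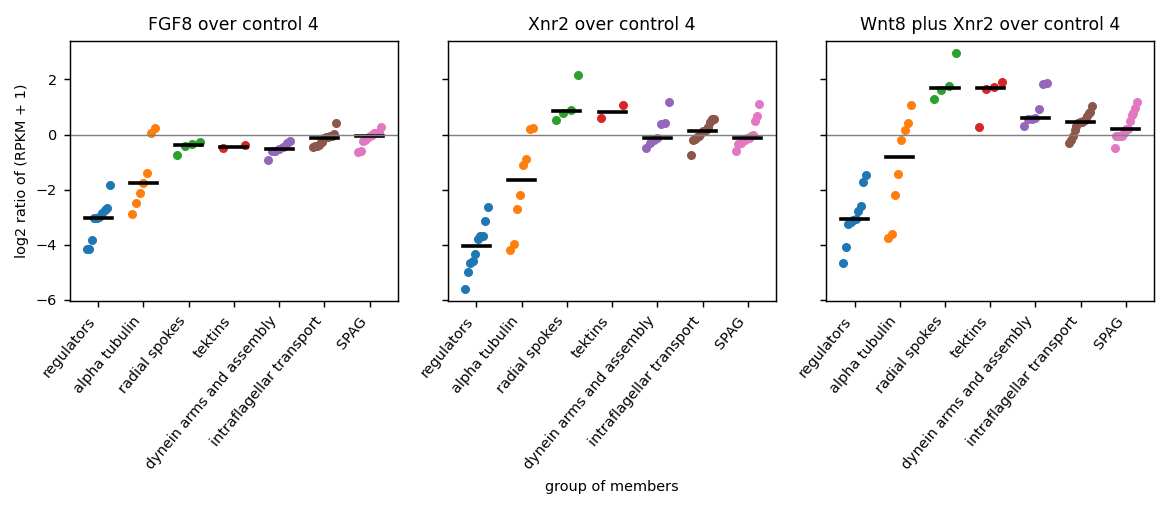
Log2 ratio of RPKM + 1 in each injected library of control set 4 over control 4, 1 point per tested member and a bar at each group's median. In Wnt8 plus Xnr2 the regulator median is -3.08 and the radial spoke median 1.68, while in FGF8 no group's median is above 0.

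Against the 4 controls, 2 of 56 members were called lower in Xnr2 caps and 0 higher (0.447% and 3.69% of all transcripts). Gmnc-like.L had 0.454 RPKM in Xnr2 caps, against 7.61, 12.7, 31.0 and 34.3 RPKM in controls 1 to 4, and fell by 3.72 ± 0.77 (SE) on the log2 scale (limma, adjusted p = 0.0310, and 0.0450 under the block). Its call was lost without control 3, control 4, dissociated 2 or dissociated 3, and its adjusted p ran from 0.00565 to 0.115 over the alternatives. Myb.S fell by 3.82 ± 0.52 (adjusted p = 0.00294), with 17.8 ± 4.8 RPKM in the 4 controls (SD), and passed under all 13 alternatives (0.00196 to 0.0329). Gmnc-like.L and myb.S both had under 1 RPKM in Xnr2 caps and passed the filter only through control 4. Their calls are thus no independent support for a fall. In Wnt8 plus Xnr2 caps 1 of 60 was called lower and 0 higher (0.24% and 3.5%), myb.S, which fell by 3.07 ± 0.52 (adjusted p = 0.0115, and 0.0703 under the block, which calls 0 members and 0.247% of all transcripts lower). In FGF8 caps 0 of 54 passed (0.168% in either direction), and 3 were lower at an unadjusted p under 0.05 (1.31% of all transcripts). Without control 1, 8 members were called lower in Xnr2 caps (1.23% of all transcripts) and 5 in Wnt8 plus Xnr2 caps (1.15%), all of them regulators. Of those in Xnr2 caps, all but ccno.L and ccno.S passed the filter only through control 4. Without control 4, tuba1b.L and tuba1b.S were also called lower in both Xnr2 libraries. This sets their low readings in control set 4 against controls 1 to 3.

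Outside the members, the axoneme and cilium list had a median log2 ratio to control 4 of 1.03 in Wnt8 plus Xnr2 caps (63 transcripts tested), against -0.04 for all transcripts tested. Of these, armc4.S, which docks outer dynein arms, and efhb.L, of the doublet lumen, were called higher against the 4 controls, 2 of 63, where 3.5% of all transcripts were. Armc4.S had 8.08 RPKM in Wnt8 plus Xnr2 caps and 1.01 ± 1.04 RPKM in the 4 controls (SD), with a log2 change of 2.30 ± 0.49 (SE; limma, adjusted p = 0.0390, and 0.0802 under the block). Efhb.L had 2.08 RPKM in Wnt8 plus Xnr2 caps and 0.161 ± 0.090 RPKM in the 4 controls (SD; limma, adjusted p = 0.00128). In control 4 armc4.S had 0.438 RPKM and efhb.L 0.0675 RPKM. Both passed the filter on mean level only through Wnt8 plus Xnr2 caps, so their calls are no independent support for a rise. Such transcripts are also among the 63 tested, so the median of 1.03 is no independent support either. The wider multiciliated cell program had a median ratio of -0.05, with 0 of 24 called. In Xnr2 caps the Notch modifier lfng.L was called lower, with 1.74 RPKM, against 23.9 ± 8.2 RPKM in the 4 controls (SD; limma, adjusted p = 0.0149). Of all transcripts, 0.447% were called lower there. In BMP4 caps 2 HES1 models were called higher (0.411% of all transcripts). They had 25.6 and 24.3 RPKM there, against 0.526 and 0.108 RPKM in control 1. Both passed the filter only through BMP4 caps, so these calls are no independent support for a rise either. The summed mesoderm markers were 3116 RPKM in Xnr2 caps and 3194 RPKM in Wnt8 plus Xnr2 caps, against 6.74 RPKM in control 4 (18 transcripts). In the same order, ionocyte markers summed to 16.7 and 57.8 RPKM, against 451 RPKM (11 transcripts). Epidermis markers summed to 1177 and 1130 RPKM, against 2372 RPKM (15 transcripts). Neural plate markers summed to 351 and 506 RPKM, against 134 RPKM (12 transcripts). The few endoderm markers listed were lower than in control 4. They summed to 2.20 RPKM in Xnr2 caps, against 19.3 RPKM in control 4 (3 transcripts). In Wnt8 plus Xnr2 caps they summed to 9.45 RPKM, against 21.1 RPKM in control 4 (4 transcripts). The part of these markers in the members' values was not tested.

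Wnt8 plus Xnr2 caps set directly against Xnr2 caps compare 1 library with 1, so no p is given. On the log2(RPKM + 1) scale, with 5 RPKM or more in the higher library, ccno.L was the 1 of 56 members at least 4-fold higher, and 0 were as much lower (0.138% and 0.09% of all transcripts). Ccno.L had 12.7 RPKM in Wnt8 plus Xnr2 caps and 2.28 RPKM in Xnr2 caps, a ratio of 5.54 (95% counting interval 4.55 to 6.81). As plain RPKM ratios, MCIDAS Xelaev18008287m (11.9, interval 5.22 to 33.3), gmnc-like.L (6.83, 4.45 to 10.9), myb.L (4.70, 2.44 to 9.92) and ccno.S (4.66, 3.67 to 5.99) were also over 4-fold higher, at lower levels. MCIDAS Xelaev18010956m had 31 reads in Wnt8 plus Xnr2 caps and 0 in Xnr2 caps, and Xelaev18002015m had 10 and 0, so neither has a ratio. The share of all transcripts at that plain ratio was not counted. Foxj1.L had 25.3 RPKM in Wnt8 plus Xnr2 caps and 8.78 RPKM in Xnr2 caps, a ratio of 2.88 (2.65 to 3.14). The DNAAF1 model had a ratio of 2.93 (2.62 to 3.29), and rsph3.L one of 1.84 (1.68 to 2.03). The IFT20 model Xelaev18011911m was lower in Wnt8 plus Xnr2 caps, with a ratio of 0.763 (0.681 to 0.854).

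The dorsal and the ventral embryo piece, also 1 library each, differed in several regulators. MCIDAS Xelaev18010956m had 0.572 RPKM in the dorsal piece and 6.99 RPKM in the ventral piece, a ratio of 0.0818 (95% counting interval 0.0448 to 0.139). MCIDAS Xelaev18008287m had 0.440 RPKM in the dorsal piece and 5.84 RPKM in the ventral piece, a ratio of 0.0754 (0.0494 to 0.111). On the log2(RPKM + 1) scale, with 5 RPKM or more in the higher library, these were the 2 of 55 members at least 4-fold lower in the dorsal piece, and 0 were as much higher (0.267% and 0.441% of all transcripts). Ccno.L had 6.38 RPKM in the dorsal piece and 19.5 RPKM in the ventral piece, and myb.S had 0.485 RPKM in the dorsal piece and 2.36 RPKM in the ventral piece. As plain RPKM ratios, myb.S (0.206, interval 0.144 to 0.289) and myb.L (0.182, 0.123 to 0.263) were also over 4-fold lower in the dorsal piece. The share of all transcripts at that plain ratio was not counted. Both MCIDAS models and both myb copies had under 1 RPKM in the dorsal piece. They reached the mean of 1 RPKM needed for listing only through the ventral piece, so they are no independent support for a difference. Gmnc-like.L did not separate them, with 2.00 RPKM in the dorsal piece and 2.19 RPKM in the ventral piece, a ratio of 0.912 (0.681 to 1.22). The RSPH1 model ran the other way, with 4.88 RPKM in the dorsal piece and 1.39 RPKM in the ventral piece, a ratio of 3.51 (2.41 to 5.21). LOC100497528.S, an alpha-tubulin, had 266 RPKM in the dorsal piece and 153 RPKM in the ventral piece. The summed neural plate markers were 1055 RPKM in the dorsal piece and 678 RPKM in the ventral piece, and the summed ionocyte markers 16.7 RPKM in the dorsal piece and 32.8 RPKM in the ventral piece. Their part in these ratios was not tested.

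**Figure D5:**
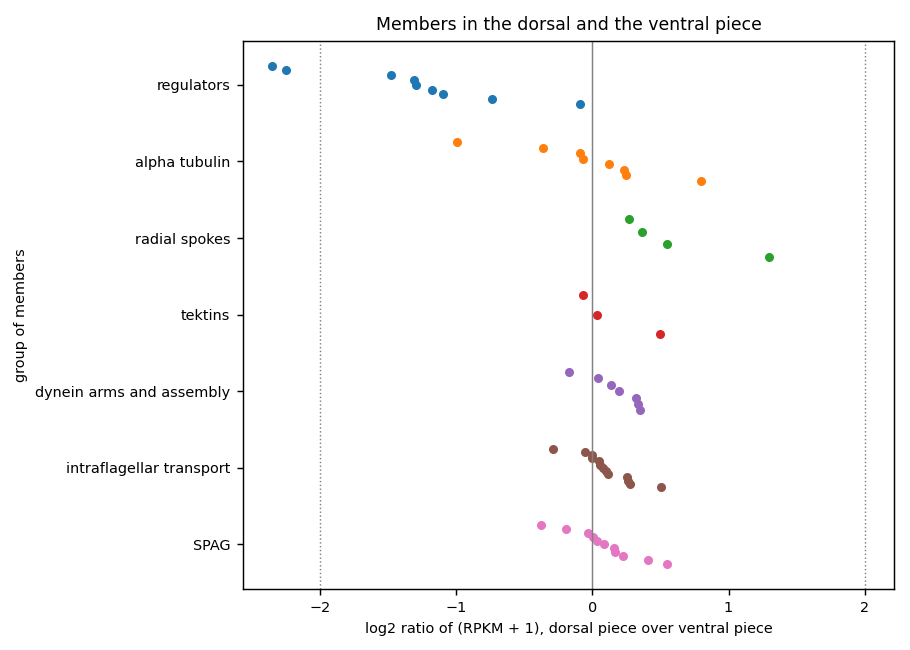
Log2 ratio of RPKM + 1 in the dorsal piece over the ventral piece for each listed member (points), by group, with dotted lines at 4-fold. The 2 MCIDAS models lie beyond 4-fold toward the ventral piece, and RSPH1 is the farthest point toward the dorsal piece.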

How the data were processed

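RNA-seq of 16 libraries was deposited as RPKM per transcript of the JGI9.1 genome, computed by the authors, per the file headers. The submitters' processing notes name TopHat2 2.09 and DESeq, and which step each served is not given in the sources used here. A full table lists controls 1 to 3 and dissociated 1 to 3, and paired tables leave out transcripts averaging under 1 RPKM, per the file headers. The authors' human symbols come from protein comparison. A missing value was not set to 0.

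RPKM are not counts, so limma 3.58.1 (R 4.3.3) was run on log2(RPKM + 1), using a trended prior variance, and p-values were adjusted by Benjamini-Hochberg across transcripts with a mean of 1 RPKM or more. Calls have an adjusted p under 0.05. A lone injected library was set against controls 1 to 4, with the spread of control and dissociated libraries, and is assumed to vary like them. Names of control set 4 without a read in the full table were left out of those fits. Whole reads were recovered for 30439 of 30538 transcripts to within 0.01 reads, for counting intervals. The fits were tested on simulated data. Libraries with the same set number deviated from their group means together (r = 0.584, 0.391 and 0.628 across transcripts, between the dissociated and the control library of sets 1 to 3), so the control set was also fitted as a block. Each set is an independent experiment per the file headers.

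Named members are all regulators and TUBA1A models, the 3 with the highest mean of each other family, and all past a threshold. Named transcripts were matched to lists by name, numbered models by human symbol. Members and lists were chosen with earlier results of these data known. Genome sequence and coordinates were not used here.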

Additional observations from a re-analysis of the deposited data

Results flagged for a closer look

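In the 4 control libraries, 3 of 36 named members tested had a library far from the others, by a gap over the range that chance alone gives in about 1 of 20 groups. At that rate a few of 36 can be flagged by chance alone, and foxj1.L and foxj1.S are copies of 1 gene. The share of all transcripts past this gap was not counted. Foxj1.L had 1.76 RPKM in control 1, against 79.2, 84.9 and 106 RPKM in the other controls. Foxj1.S had 5.60 RPKM in control 1, against 119, 125 and 188 RPKM in the other controls. Tuba1b.S had 1.04 RPKM in control 4, against 43.9, 61.4 and 65.7 RPKM in the other controls.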

How the results depend on the processing

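The number of members called lower by dissociation (1) was 0 with a pseudocount of 0.1 or 5, without the filter on low values, with median scaling and with voom on recovered reads. It was 2 with the replicate block, 9 with voom and the block, and 25 with the block and set 1 left out, the last pair chosen after seeing the data. Leaving out 1 library at a time gave 0 to 15, the highest without control 1. In Xnr2 caps the count of 2 lower became 1 with a pseudocount of 5 and ran from 1 to 8 over left-out libraries, and members called higher from 0 to 1 (spag6.L without control 2). In Wnt8 plus Xnr2 caps the count of 1 lower was 0 with the replicate block and ran from 1 to 5, and members called higher were 1 with a pseudocount of 5 (rsph3.L), 1 with names lacking reads in the full table kept (dnal1.L), and 0 to 1 over left-out libraries (spag6.L). Leaving out libraries gave 0 to 2 lower for BMP4, 0 to 3 for Chordin and 0 to 6 for Cerberus, each time above 0 only without control 1. For BMP4 and Chordin that library is their own control. Wnt8 and FGF8 had 0 members called under every alternative run. The 2 members 4-fold lower in the dorsal piece were 0 with a pseudocount of 5. The 1 member 4-fold higher in Wnt8 plus Xnr2 than in Xnr2 was 2 with a pseudocount of 0.1 and 0 with one of 5. Spag6.L had 0.376 RPKM in control 4, so it passed the filter on mean level only through the injected library. No called member reversed. Over all transcripts, the dissociation count of 50 became 22 with a pseudocount of 5, 0 without the filter, 239 with the replicate block, 4 with voom, 432 with voom and the block and 1583 with set 1 also left out of the block, and 0 to 374 over left-out libraries. The cause of these changes was not tested. With 1 library per injection, the tests rest on the spread of other libraries, and with members near 0 in control 1 a change against all controls is limited by that library.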
